A study of Mus musculus with 6 samples.

Results

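The Xlr3, Xlr4 and Xlr5 genes were the 9 rows of the deposited gene table whose symbols are Xlr3, Xlr4 or Xlr5 followed by a, b or c, of 25239 genes listed and 20461 with a p-value. The cells were E14, a male mouse embryonic stem cell line, grown in N2B27 medium with LIF and 2i, which hold such cells in a naive state. They carried either an siRNA against Ehmt2 (3 libraries, labelled as a knockdown) or a control siRNA (3 libraries, labelled wild type). Both groups were parental cells of the same line, received 2 µl of a 40 µM siRNA stock with a lipid reagent and were collected 3 days later. One Ehmt2 siRNA title misspells the target. A knockdown leaves some of the target's mRNA, the labels do not say that the libraries came from separate cultures, and p-values then measure only the spread between these libraries.

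Ehmt2 (also called G9a) is a histone methyltransferase that works with its partner Ehmt1 to place mono- and dimethylation on lysine 9 of histone H3, a mark of silenced genes that include many germline genes. The Xlr (X-linked lymphocyte regulated) genes are rodent genes of the SYCP3/Cor1 superfamily, named after SYCP3, a structural protein of meiotic chromosome axes. They lie in multicopy clusters on the X chromosome and are best known from lymphocytes, male germ cells and brain. In mouse brain Xlr3b, Xlr4b and Xlr4c are imprinted, with the maternal copy expressed. A male line holds a maternal X only.

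The authors' deposited table gives each gene 1 mean over all libraries, 1 log2 fold change and 1 p-value. Its header does not name the numerator. The fold changes are taken here to run Ehmt2 siRNA over control siRNA, since the targeted gene has a negative one. Ehmt2 changed by -1.53 on the log2 scale in the authors' deposited table (SE 0.12, adjusted p = 2.87e-33), and Ehmt1 had a log2 fold change of -0.05 (SE 0.08, adjusted p = 0.899). Ehmt2 therefore cannot check the labels independently. Whole read counts per library were worked back from the 15 digits of the deposited means, and for all 9 Xlr members a single set of 6 counts also gave the deposited fold change, to within 2.20e-07 on the log2 scale. Libraries are called a, b and c within each group by falling size factor, the scaling for depth (1.25, 0.952 and 0.952 for Ehmt2 siRNA, and 1.05, 1.01 and 0.845 for control siRNA). The letters are not the replicate numbers of the labels, total depth is unknown, and the members' counts ran from 32 to 2517 reads per library. Over 3152 genes with a mean of 20 to 200, Ehmt2 siRNA library a and control siRNA library c stood apart from the other libraries of their groups, and their deviations from the group means ran together (Pearson r across genes 0.62, against -0.52 to 0.38 for the other pairs of an Ehmt2 siRNA and a control library; genes are not independent replicates). Results are therefore also given without both.

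Higher Xlr expression in Ehmt2 siRNA cells was uneven between copies. By adjusted p-values (Benjamini-Hochberg over all tested genes, called below 0.05), 5 of the 9 members rose, 0 fell and 4 were not called. All 3 Xlr4 genes rose, as did Xlr3b and Xlr3c, while Xlr3a and the 3 Xlr5 genes were not called. Over all genes tested 5.45% were called higher, 4.82% lower and 10.3% in either direction. Without Ehmt2 siRNA library a and control siRNA library c, 4 members passed, Xlr4a being the one lost, and between those 2 libraries alone all 9 log2 fold changes were positive (0.10 to 0.73). In bulk RNA, more cells that express a gene and more RNA per cell cannot be told apart.

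All 9 fold changes were positive, against 51.1% of all genes, and 6 members were higher at an unadjusted p below 0.05, against 10.2%. The median log2 fold change of the members was 0.46, against 0.01 over all genes. Among the 6411 genes whose means lie within the members' range of 49.96 to 1974 normalized counts, 8.25% were called higher, 45.3% had a positive fold change and the median was -0.03. In 8 of the 9 members every Ehmt2 siRNA library lay above every control library. That held for 3 of 4 members with a mean of 20 to 200, against 18.0% of genes in that range, and for 5 of 5 with a mean of 200 to 2000, against 8.57% of the 105 other genes examined there. The 9 members share sequence and a locus and are not independent of each other.

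**Figure D1:**
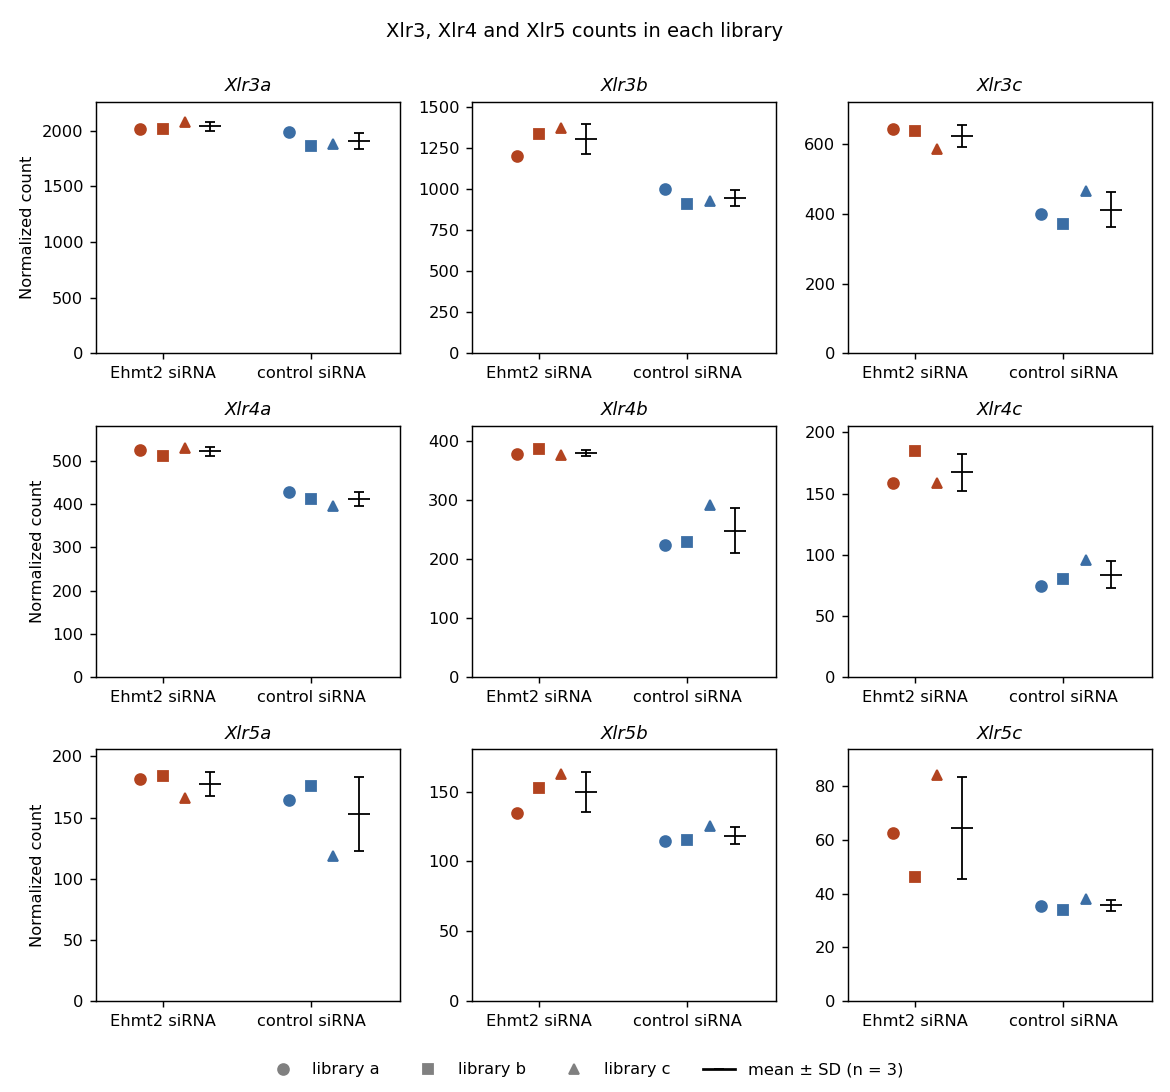
Normalized read count of each Xlr3, Xlr4 and Xlr5 gene (1 panel each, linear axis from 0) in the 3 Ehmt2 siRNA libraries (red, left) and the 3 control siRNA libraries (blue, right), with the mean and SD as bars. The groups overlap for Xlr5a alone, and Xlr4c stands at 159 to 185 in Ehmt2 siRNA libraries, against 74.5 to 95.9 in control libraries.

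The Xlr4 genes, whose copies b and c are the imprinted ones in brain, had the largest summed fold change of the 3 subfamilies. Xlr4c had 159, 185 and 159 normalized counts in Ehmt2 siRNA libraries a, b and c, against 74.5, 80.6 and 95.9 in control libraries a, b and c. The lowest Ehmt2 siRNA library stood well above the highest control library. Its log2 fold change was 1.004 (95% interval 0.61 to 1.40, adjusted p = 2.83e-05), a 2.01-fold difference and the highest of the 9. Without Ehmt2 siRNA library a and control library c it was 1.15.

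Xlr4b had 379, 386 and 376 normalized counts in the Ehmt2 siRNA libraries, against 224, 229 and 292 in the control libraries. Control library c lay closest to the Ehmt2 siRNA group, and the groups did not overlap. Its log2 fold change was 0.62 (0.33 to 0.91, adjusted p = 7.30e-04). Without Ehmt2 siRNA library a and control library c it was 0.75, and between those 2 libraries alone it was 0.37.

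Xlr4a, at the other end of the cluster, had 524, 510 and 529 normalized counts in the Ehmt2 siRNA libraries, against 427, 411 and 394 in the control libraries. The libraries of each group were close together, and the groups did not overlap. Its log2 fold change was 0.34 (0.14 to 0.54, adjusted p = 0.0129). It no longer passed without control library c (0.32), or without that library and Ehmt2 siRNA library a (0.31).

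Added up, the 3 Xlr4 genes gave 1069 ± 11.0 normalized counts in Ehmt2 siRNA cells and 743 ± 34.6 in control cells (SD, n = 3 each), a log2 ratio of 0.53. Such a sum does not depend on how reads shared by the copies were assigned, as long as they stayed among them. Without Xlr4a, its highest copy, the log2 ratio was 0.72. The windows around the annotated starts of Xlr4a and Xlr4c are shown because these copies had the lowest and the highest fold change of the subfamily while their windows were 98.1% identical over 270 aligned bases. RefSeq's windows on GRCm38.p6 reach from 250 bases before the start to 50 after it. They lie at chrX:73082458-73082757 (minus strand) for Xlr4a and chrX:73243081-73243380 (minus strand) for Xlr4c, and capitals mark CG dinucleotides, where DNA methylation mostly falls.
Xlr4a: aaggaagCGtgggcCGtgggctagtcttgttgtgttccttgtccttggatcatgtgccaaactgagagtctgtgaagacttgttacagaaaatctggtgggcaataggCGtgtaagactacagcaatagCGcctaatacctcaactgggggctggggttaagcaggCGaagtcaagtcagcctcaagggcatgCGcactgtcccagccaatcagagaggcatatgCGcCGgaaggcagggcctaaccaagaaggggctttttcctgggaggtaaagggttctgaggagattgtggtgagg
Xlr4c: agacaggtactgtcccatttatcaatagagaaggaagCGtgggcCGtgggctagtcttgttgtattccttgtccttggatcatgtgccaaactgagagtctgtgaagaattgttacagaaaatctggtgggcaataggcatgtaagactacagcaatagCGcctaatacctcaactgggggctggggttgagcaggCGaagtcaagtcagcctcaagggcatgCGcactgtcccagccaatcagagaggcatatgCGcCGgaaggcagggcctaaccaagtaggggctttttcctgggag

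The Xlr3 genes were the most abundant subfamily. Xlr3 proteins are known from the XY body of spermatocytes, and in neurons Xlr3b binds RNA and affects its transport to dendrites. Xlr3b had 1201, 1337 and 1374 normalized counts in the Ehmt2 siRNA libraries, against 1000, 908 and 926 in the control libraries. The groups did not overlap, and its log2 fold change was 0.46 (0.28 to 0.65, adjusted p = 4.98e-05), or 0.51 without Ehmt2 siRNA library a and control library c.

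Xlr3c had 644, 637 and 587 normalized counts in the Ehmt2 siRNA libraries, against 399, 371 and 466 in the control libraries. Control library c was again the control nearest to the Ehmt2 siRNA group. Its log2 fold change was 0.60 (0.35 to 0.84, adjusted p = 6.79e-05), and it was 0.67 without Ehmt2 siRNA library a and control library c.

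Xlr3a, the most highly counted member, had 2016, 2019 and 2083 normalized counts in the Ehmt2 siRNA libraries, against 1988, 1859 and 1881 in the control libraries. The groups came close without overlapping. Its log2 fold change was 0.09 (-0.04 to 0.23, adjusted p = 0.535), so an increase above 0.23 lay outside the 95% interval. The intervals of Xlr3b and Xlr3c lay wholly above that bound.

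The 3 Xlr3 genes summed to 3967 ± 94.4 normalized counts in Ehmt2 siRNA cells and 3266 ± 124 in control cells (SD, n = 3 each), a log2 ratio of 0.28 that became 0.51 without Xlr3a. The start windows of Xlr3a and Xlr3b are shown because one copy was called and the other was not. They lie at chrX:73097046-73097345 (minus strand) for Xlr3a and chrX:73191929-73192228 (plus strand) for Xlr3b, are 94.1% identical over 237 aligned bases, and again have CG in capitals.
Xlr3a: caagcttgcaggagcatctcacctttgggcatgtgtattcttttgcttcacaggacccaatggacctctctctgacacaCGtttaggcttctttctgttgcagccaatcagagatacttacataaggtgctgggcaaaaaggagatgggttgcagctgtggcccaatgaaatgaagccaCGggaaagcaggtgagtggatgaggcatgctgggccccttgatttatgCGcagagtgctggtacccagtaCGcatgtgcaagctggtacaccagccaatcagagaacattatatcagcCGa
Xlr3b: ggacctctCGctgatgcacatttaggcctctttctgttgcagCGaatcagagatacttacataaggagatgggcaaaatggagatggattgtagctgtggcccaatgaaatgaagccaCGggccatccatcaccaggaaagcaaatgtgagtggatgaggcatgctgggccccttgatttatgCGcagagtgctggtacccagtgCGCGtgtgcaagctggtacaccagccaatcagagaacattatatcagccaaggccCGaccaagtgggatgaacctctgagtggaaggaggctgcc

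The Xlr5 genes, for which little function is known, had the fewest reads and none was called. Xlr5c had 62.5, 46.2 and 84.0 normalized counts in the Ehmt2 siRNA libraries, against 35.3, 33.8 and 37.9 in the control libraries. The Ehmt2 siRNA libraries were all higher but widely spread. Its log2 fold change of 0.85 (0.19 to 1.51) had an adjusted p of 0.0899. With each library left out in turn it passed in 1 of 6 runs, without Ehmt2 siRNA library b (1.03), and it was lowest without Ehmt2 siRNA library c (0.62).

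Xlr5b had 135, 152 and 163 normalized counts in the Ehmt2 siRNA libraries, against 115, 115 and 125 in the control libraries (log2 fold change 0.34, interval -0.02 to 0.70, adjusted p = 0.302). Xlr5a had 182, 184 and 166 normalized counts in the Ehmt2 siRNA libraries, against 164, 176 and 118 in the control libraries (0.21, interval -0.18 to 0.60, adjusted p = 0.709). Its groups overlapped, control library c being the low one, and without that library its log2 fold change was 0.06. The subfamily summed to 391 ± 18.7 in Ehmt2 siRNA cells and 307 ± 22.7 in control cells (SD, n = 3 each), a log2 ratio of 0.35, or 0.47 without Xlr5a. Without Ehmt2 siRNA library a and control library c the log2 fold changes were 0.91 for Xlr5c, 0.45 for Xlr5b and 0.04 for Xlr5a. At these counts the interval of Xlr5c holds the fold changes of all 5 called members.

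The 9 genes occupy 219.521 kb of the X chromosome, chrX:73074343-73293863 on GRCm38, in the order Xlr4a, Xlr3a, Xlr5a, Xlr5b, Xlr3b, Xlr4b, Xlr4c, Xlr3c and Xlr5c from the centromere side. The 4 members on the centromere side had log2 fold changes of 0.09 to 0.34, and the 5 on the telomere side 0.46 to 1.004. Summed normalized counts were 2888 ± 46.7 in Ehmt2 siRNA cells and 2592 ± 91.1 in control cells on the centromere side, a log2 ratio of 0.16. On the telomere side they were 2539 ± 81.3 in Ehmt2 siRNA cells and 1725 ± 98.1 in control cells (SD, n = 3 each), a log2 ratio of 0.56. Xlr3a alone gave 2040 of the centromere-side counts in Ehmt2 siRNA cells and 1909 in control cells, so that ratio mostly reflects this copy. Each subfamily has copies on both sides, so unlike the subfamily sums these sums depend on how shared reads were assigned. This division was drawn after the values were seen and was not tested. Without Ehmt2 siRNA library a and control library c, the log2 ratios were 0.14 on the centromere side and 0.62 on the telomere side.

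**Figure D2:**
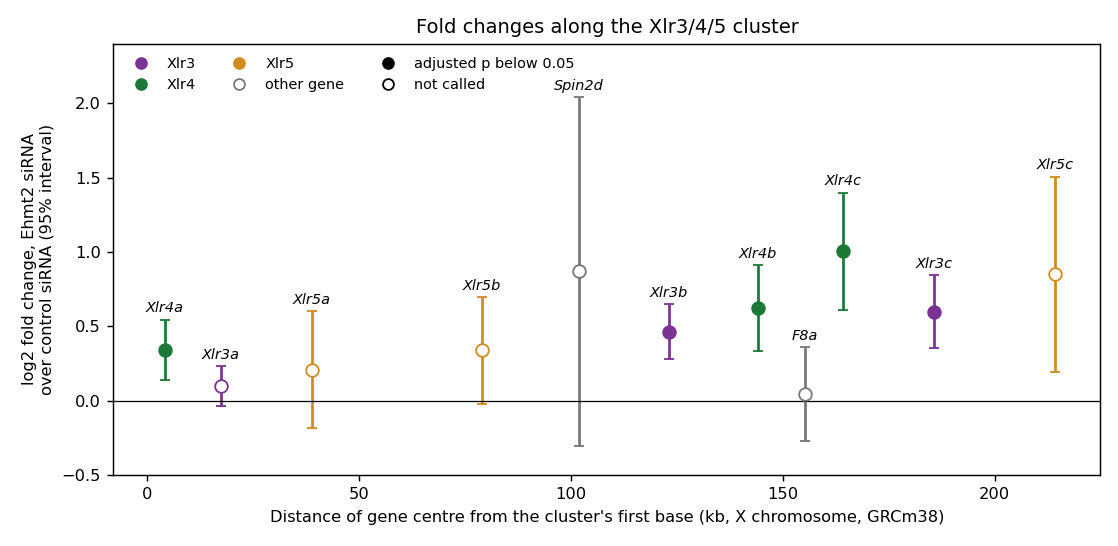
Log2 fold change, Ehmt2 siRNA over control siRNA, with its 95% interval, against the distance of each gene's centre from the first base of the cluster in kb, for the 9 members and for Spin2d and F8a between them. Filled points were called at an adjusted p below 0.05; Xlr4a is the one filled point among the first 4 members, and F8a lies at 0.04 between Xlr4b (0.62) and Xlr4c (1.004).

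None of the genes annotated between the members was called. F8a, which encodes a huntingtin-associated protein and sits between Xlr4b and Xlr4c, had 175, 172 and 171 normalized counts in the Ehmt2 siRNA libraries, against 172, 179 and 152 in the control libraries. Its groups overlapped (log2 fold change 0.04, interval -0.27 to 0.36, adjusted p = 0.951). The interval's upper bound lay below the lower bound of Xlr4c, 0.61, but above those of the other called members, 0.14 to 0.35. Among these is Xlr4b, its neighbour on the other side (0.33). Spin2d, a Spindlin family gene, had a mean of 13.5 normalized counts and was not called (0.87, interval -0.31 to 2.04). DXBay18 had a single read in all libraries, and Gm14685 is listed at 0.

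Of the 15 genes annotated on each side, 7 on each side were tested, and 1 in all was called. Pnma5, a gene of the paraneoplastic Ma antigen family on the centromere side, rose by 0.30 on the log2 scale (0.11 to 0.49, adjusted p = 0.0206). The tested genes had a median log2 fold change of 0.22 on the centromere side and -0.45 on the telomere side, where none was called. On the centromere side the gene at the median had a mean of 5.34 normalized counts, and other means were as low as 0.175. The genes there with means from 902 up had log2 fold changes of -0.35 to 0.30. Summed levels on the centromere side were 7284 in Ehmt2 siRNA cells and 7405 in control cells. On the telomere side 4 of the 7 had means of only 3.03 to 15.8 normalized counts, and the other 3 had log2 fold changes of -0.36 to 0.21. Summed levels there were 6348 in Ehmt2 siRNA cells and 6456 in control cells.

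X-linked genes as a whole leaned towards higher levels in Ehmt2 siRNA cells, so the members' count has to be read against that background too. Of 786 other X-linked genes tested, 13.0% were called higher and 0.891% lower, 69.0% had a positive fold change, and the median was 0.13. Among the 269 of them within the members' range of means, 22.3% were called higher, 67.3% were positive and the median log2 fold change was 0.11. The members stood at 5 of 9, or 55.6%, with a median of 0.46. The 197 other X-linked genes with means above the members' range had a median of 0.05, with 11.2% called higher and 1.02% lower.

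**Figure D3:**
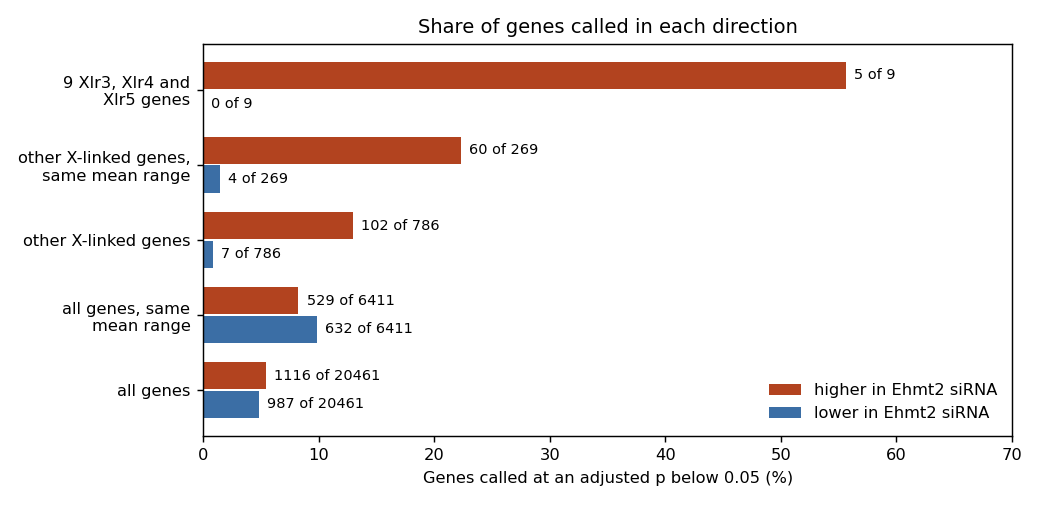
Percentage of genes called higher (red) or lower (blue) in Ehmt2 siRNA than in control siRNA at an adjusted p below 0.05, with counts beside the bars. The members stand at 5 of 9 higher, other X-linked genes within the same range of means at 60 of 269, and all genes at 1116 of 20461.

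The copies' shares within a subfamily differed between the groups for some copies, though with 3 libraries each no share could pass an exact test. Xlr3a took 52.2%, 50.6% and 51.5% of Xlr3 reads in Ehmt2 siRNA libraries a, b and c, against 58.7%, 59.2% and 57.5% in control libraries a, b and c. Xlr4a took 49.4%, 47.2% and 49.8% of Xlr4 reads in the Ehmt2 siRNA libraries, against 58.9%, 57.0% and 50.4% in the control libraries. In both subfamilies the a copy had a smaller share in every Ehmt2 siRNA library than in any control library, although Xlr4a in control library c was close.

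The c copies of Xlr3 and Xlr4 had higher mean shares in Ehmt2 siRNA cells. Xlr3c averaged 15.7% ± 1.10 of Xlr3 reads in Ehmt2 siRNA cells and 12.6% ± 1.41 in control cells, and Xlr4c 15.6% ± 1.25 of Xlr4 reads in Ehmt2 siRNA cells and 11.2% ± 0.99 in control cells (SD, n = 3 each). For Xlr3c the groups nearly touched, at 14.5% in Ehmt2 siRNA library c and 14.2% in control library c. Xlr3b averaged 32.9% ± 1.53 in Ehmt2 siRNA cells and 28.9% ± 0.622 in control cells. For Xlr3a, Xlr3b, Xlr3c, Xlr4a and Xlr4c the groups did not overlap, and an exact two-sided permutation test gave p = 0.1, the smallest that 3 against 3 libraries allow (0.18 after Benjamini-Hochberg adjustment over the 9 shares). The shares of Xlr4b (exact permutation p = 0.4), Xlr5a (0.4), Xlr5b (0.9) and Xlr5c (0.2) overlapped between groups.

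**Figure D4:**
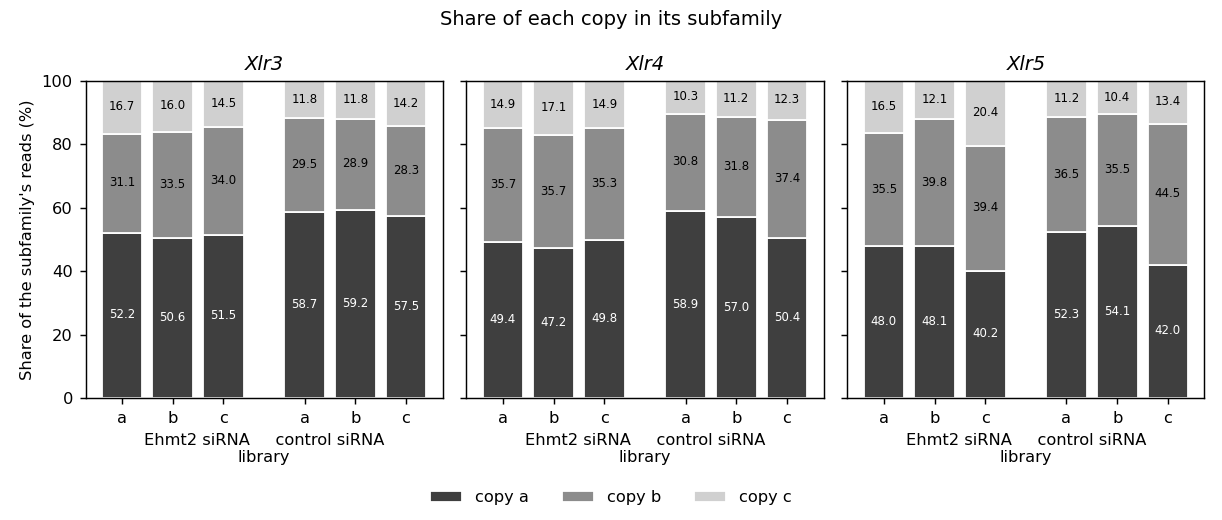
Share of each subfamily's reads taken by copies a, b and c (dark to light, adding to 100%) in each Ehmt2 siRNA and control siRNA library. Xlr3a falls between 50.6% and 52.2% in Ehmt2 siRNA libraries, against 57.5% to 59.2% in control libraries, and the light c segments are larger on the Ehmt2 siRNA side for Xlr3 and Xlr4.

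Levels of different copies were compared per kb of the longest coding GENCODE M21 transcript. In Ehmt2 siRNA cells the order ran Xlr3a (1240 ± 23.0 normalized counts per kb), Xlr3b (834 ± 58.1), Xlr4a (449 ± 8.45), Xlr3c (393 ± 19.6), Xlr4b (292 ± 4.11), Xlr4c (112 ± 10.1), Xlr5a (107 ± 5.91), Xlr5b (90.7 ± 8.65) and Xlr5c (38.8 ± 11.5; SD, n = 3). Xlr4c and Xlr5a lay within each other's SD there. In control cells Xlr3a (1161 ± 41.8), Xlr3b (604 ± 31.2), Xlr4a (353 ± 14.1), Xlr3c (260 ± 30.9) and Xlr4b (190 ± 29.4) kept their places. Below them came Xlr5a (92.7 ± 18.5), Xlr5b (71.7 ± 3.67), Xlr4c (55.8 ± 7.34) and Xlr5c (21.5 ± 1.24; SD, n = 3). The SD ranges of Xlr5a and Xlr5b overlapped at their edges in control cells. Xlr4c was the sixth gene of the order in Ehmt2 siRNA cells and the eighth in control cells. The order divides by whole transcript length and was not adjusted for sequence shared with other copies. Of stretches of 150 bases, 31.8% were shared in Xlr4c, against 49.2% in Xlr5a and 68.8% in Xlr5b. If shared reads were not counted, the places of these 3 copies could differ.

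Values of single copies are uncertain, because the longest coding transcripts of copies in a subfamily were 98.5% to 99.4% identical over their aligned length. Of all stretches of 150 bases, the length of 1 read, 25.6% of those in Xlr3a and 26.7% of those in Xlr4a also occurred, base for base, in another copy. The share was 68.8% in Xlr5b, 49.2% in Xlr5a, 48.0% in Xlr5c and in Xlr3b, 43.7% in Xlr4b, 31.8% in Xlr4c and 29.6% in Xlr3c. The counting of reads that match several copies was not described in the material used here. An annotated Xlr5a transcript (Xlr5a-204, chrX:73107635-73292976) reaches across the cluster into Xlr5c.

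The start windows printed above resemble each other within the Xlr3 and the Xlr4 subfamily. CG dinucleotides numbered 8, 8 and 7 in the windows of Xlr4a, Xlr4b and Xlr4c, and 5, 7 and 7 in those of Xlr3a, Xlr3b and Xlr3c, near the median of 7 over 32851 RefSeq windows (quartiles 3 and 20). Xlr5a and Xlr5b had 16 each in windows identical over 255 aligned bases. The window of Xlr5c had 1 and did not align with them. The windows of Xlr5a, Xlr5b and Xlr5c all lie wholly inside their annotated genes, so none sits at the gene's outer end.

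Motifs were searched on both strands, and CCAAT and CATGCGC were picked after the members' sequences had been read. CCAAT, the core bound by NF-Y, occurred in 8 of 9 member windows, all but that of Xlr5c, and in 37.4% of all windows. It occurred 4 times in Xlr3a, 2 times in Xlr3b and 3 times in Xlr3c. CATGCGC, which holds a CG, occurred in the 3 Xlr4 windows and that of Xlr3c, against 3.91% of all windows. The E-box CACGTG was in 0 of 9 (7.15% of all windows) and TCCCGC, a core of E2F-type sites, in 0 of 9 (20.0%). These are matches of letters in windows that, Xlr5c aside, resemble each other within a subfamily.

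Relatives of the members outside the cluster had few reads or mixed results. Xlr, the founding gene of the family, which lies elsewhere on the X chromosome, had 529, 881 and 775 normalized counts in the Ehmt2 siRNA libraries, against 552, 480 and 367 in the control libraries. It was called higher (log2 fold change 0.64, interval 0.21 to 1.07, adjusted p = 0.0359) although Ehmt2 siRNA library a lay below control library a. Between Ehmt2 siRNA library a and control library c, which stood apart, the log2 fold change of Xlr was 0.53, and without both it was 0.68 and no longer passed. It also failed with any 1 of Ehmt2 siRNA libraries b and c or control libraries b and c left out (0.48 to 0.66). Sycp3 on chromosome 10 had 488, 869 and 850 normalized counts in the Ehmt2 siRNA libraries, against 739, 713 and 410 in the control libraries, and was not called (0.24, interval -0.29 to 0.77, adjusted p = 0.78). Its groups overlapped, with the lowest library of each group being one of the 2 that stood apart. The log2 fold change of Sycp3 was 0.25 between those 2 libraries and 0.24 without both. Of the multicopy testis relatives, Sly had a single read, and Slx and Slxl1 are listed at 0.

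Genes of the meiotic programme, in which SYCP3 acts, were called higher at a share near that of all genes. Of 25 listed genes, Sycp3 among them, 1 rose, 0 fell and 24 were not called, with a median log2 fold change of 0.04. That is 4% called higher, against 5.45% of all genes, of which 4.82% were called lower. Not being called does not show a steady level, since the interval of an uncalled gene reached from -1.86 to 1.55. The one that rose was Syce1, a component of the synaptonemal complex's central element (0.74, interval 0.53 to 0.96, adjusted p = 1.59e-09). Those next in order of p were Dmc1, the meiotic recombinase (-0.84, adjusted p = 0.133), Smc1b, a meiotic cohesin subunit (0.80, adjusted p = 0.201), and Meioc, a regulator of meiotic entry (-0.56, adjusted p = 0.234).

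The labelled cell type fitted its markers. All 9 embryonic stem cell markers, among them Pou5f1 and Nanog, were detected and none was called, with summed levels of 498280 in Ehmt2 siRNA cells and 516315 in control cells, computed for this and the next lists from the deposited means and fold changes. Of 9 lymphocyte markers 7 were detected (sum 2983 in Ehmt2 siRNA cells and 2495 in control cells), Rag1 and Rag2 being listed at 0, while Cd3e rose by 1.53 and Cd79a changed by -1.67. Of 9 spermatogenic markers 8 were detected (1685 in Ehmt2 siRNA cells and 1620 in control cells), Pgk2 being listed at 0, and none was called. Of 8 feeder fibroblast markers 7 were detected (679 in Ehmt2 siRNA cells and 662 in control cells), with Dcn at 0 and Col1a2 up by 2.43. Of 6 trophoblast markers 4 were detected (624 in Ehmt2 siRNA cells and 258 in control cells), with Tpbpa and Prl3d1 at 0 and Cdx2 up by 1.31. Cdx2 had a mean of 433 normalized counts, and the other detected trophoblast markers only 1.66 to 3.61. Detected means a mean above 0, and the lowest were 2.33 among lymphocyte, 0.484 among spermatogenic and 0.741 among fibroblast markers. The highest were 1414 (Lck), 612 (Sycp1) and 439 (Pdgfrb), within the members' range of means. The lowest embryonic stem cell marker, Klf4, had 19551. The part of such cell types in the Xlr values was not tested.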

How the data were processed

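Per the labels' protocols, polyA-enriched, stranded libraries of E14 cells, 3 with Ehmt2 siRNA and 3 with control siRNA, were sequenced as read pairs. Trimmomatic 0.36, FastQC, STAR and DESeq2, with builds GRCm38 and mm10, are listed in the submitters' processing notes. The read counter, its annotation and its strand setting were not described in the material used here. The 1 deposited table gives a signal per gene (the mean over 6 libraries of counts divided by size factors), a log2 fold change and an unadjusted p-value, per the file headers.

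The design's rule for a table of comparisons was used: p-values were adjusted by Benjamini-Hochberg over 20461 genes and called below 0.05, which let unadjusted p up to 0.00514 pass. Standard errors were taken as fold change over the normal quantile of p, assuming a Wald test. The members and lists were chosen with earlier results of these data known. All 9 members are named, with Ehmt2, Ehmt1, superfamily genes with a value, called neighbours (15 RefSeq genes each side) and at most 4 genes of other lists with the smallest p; F8a, Spin2d and the called markers were named after their values were seen.

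Genes with a single read have means of 1 over 6 size factors, which gave the size factors, and the sign of their fold change gave the group. Sets of whole counts that give a mean to its last digit were searched, and a set was accepted if a negative binomial fit gave the deposited fold change within 2e-06 and the next set was at least 10 times worse. For the members the nearest rejected set was off by at least 9.75e-06. These limits, the search range and the floor of a mean of 20 (Spin2d, lower, was also solved) were set after trial genes had been seen. Of 3173 genes with a mean of 20 to 200, 3152 were solved, and 107 of 114 from a systematic sample of 200 to 2000. The recovery and calling steps were tested on simulated data. For recovery a single dispersion was used, and the simulated means lay below those of Xlr4b, Xlr4a, Xlr3c, Xlr3b and Xlr3a. The recovered counts of these members were therefore not covered by that test.

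The superfamily list in the design also allowed a symbol pattern, which matched unrelated genes, so only its listed symbols were used. The pseudogenes among these, 6 in number, have no row in the deposited table. Sequences are RefSeq windows (GRCm38.p6) and GENCODE M21 transcripts. Promoter motifs were not in the design. Alternatives were other gene sets for adjustment, stricter thresholds, centring, a trend on mean expression (lowess), left-out copies, left-out libraries and, chosen after seeing the data, both libraries that stood apart or a block for them. Python 3.11.15, numpy 2.4.6, scipy 1.17.1, statsmodels 0.14.6, pandas 2.3.3 and Biopython 1.88 were used.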

Additional observations from a re-analysis of the deposited data

How the results depend on the processing

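The count of 5 called Xlr members was the same when p-values were adjusted over genes with a mean of at least 10 or at least 50. It was also the same after subtracting the median (-0.002) or the trend on mean expression (-0.007 to -0.062 for the members). Both are negative and so raised every member's fold change, which could hardly lower the count. The count was 4 at an adjusted p below 0.01, and 3 with Bonferroni adjustment. Leaving out each library in turn, which was added after seeing the data and keeps the dispersion and the p cut-off of all 6 libraries, gave 4 to 6 calls. Leaving out both Ehmt2 siRNA library a and control siRNA library c gave 4. Without its highest copy the log2 ratio of summed levels was 0.51 for Xlr3, 0.72 for Xlr4 and 0.47 for Xlr5. At an adjusted p below 0.01, 0 neighbours were called. No member or summed level changed direction under any of these settings. No paired analysis was possible because the recovered counts carry no replicate numbers. With a block taken from the data instead, those 2 libraries against the other 4, 5 members passed, the same ones, at the dispersion estimated without the block. Single copies depend on how shared reads were counted, Xlr5 copies are limited by their low counts, and the direction rests on the sign of Ehmt2.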
